A study of Mus musculus with 5 samples.

Results

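Kidney and liver are epithelial organs of metabolism, and this comparison sets their RNA polymerase II (Pol II) landscapes directly against each other. Pol II is the enzyme that transcribes protein-coding genes. In chromatin immunoprecipitation with sequencing (ChIP-seq), an antibody pulls down the DNA to which it is bound, so read density follows where polymerase sits along the genome. Kidney tubules recover salts, sugars and proteins from the filtrate, while hepatocytes make plasma proteins and process nutrients, and much of each organ's transcription serves those tasks.

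The members are the 105933 genomic regions obtained by joining the authors' kidney and liver peak positions, each widened by 250 bp to both sides. The same step over all 5 tissues of the series gave 186413 regions. The kidney library came from fresh kidney of adult FVB mice and the liver library from fresh liver of the same strain, both crosslinked with 1% formaldehyde for 10 min and precipitated with 10 µg of one Pol II antibody. No other genotype or treatment is named for either. The other libraries, from brain, lung and spleen, serve only as levels beside the results. Each tissue had 1 library, so no difference has a replicate check and no test across animals was possible. Intervals given here are exact conditional binomial or Clopper-Pearson 95% intervals, which cover counting error only.

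The kidney library held 13786536 aligned reads and 81375 authors' peaks, and the liver library held 14964934 aligned reads and 57816 peaks. Reads at an already used position and strand made up 4.51% of the kidney library and 8.87% of the liver library. Each region is given by chromosome and by its deposited start and end, counted from 1. Neither labels nor files name the genome build, and no annotation of a matching build was used. No gene, exon or promoter is therefore attached to a region, and the tissue labels were not checked against marker genes. In whole tissue, fewer cells of a type and less polymerase per cell cannot be told apart.

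Most regions held a peak of one organ only. Of the 105933 regions, 77001 held a kidney peak and 54674 held a liver peak. The 25742 regions with both were 33.4% of those with a kidney peak and 47.1% of those with a liver peak. A further 51259 regions held a peak of kidney alone and 28932 a peak of liver alone. The regions as a whole took 14.2% of the kidney reads and 14.7% of the liver reads.

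Where both organs carried substantial reads, their levels were mostly close. Counts were scaled by the median kidney to liver ratio, 0.875, over the 16806 regions with at least 20 reads in both libraries. The ratio of total reads was 0.921. Of those regions, 84.0% lay within 2-fold of equality. The minimum in both libraries leaves out regions that are low in one organ, and 43762 regions had at least 20 reads in either library. Scaling over the same regions also places their median ratio at equality, so part of this closeness is set by the rule. The log2 ratio of scaled kidney to liver reads had its 5% point at -1.35 and its 95% point at 1.06, so the tail on the liver side reached further. The 5 tallest regions of near-equal level were tall pile-ups in every library. None of the 5 samples is a control library made without the antibody. Read pile-ups unrelated to polymerase therefore cannot be told apart from polymerase in these regions. The highest, on chromosome 2 from 98506936 to 98507471, held 10631 kidney, 10856 liver, 6735 brain, 7561 lung and 20949 spleen reads.

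**Figure D1:**
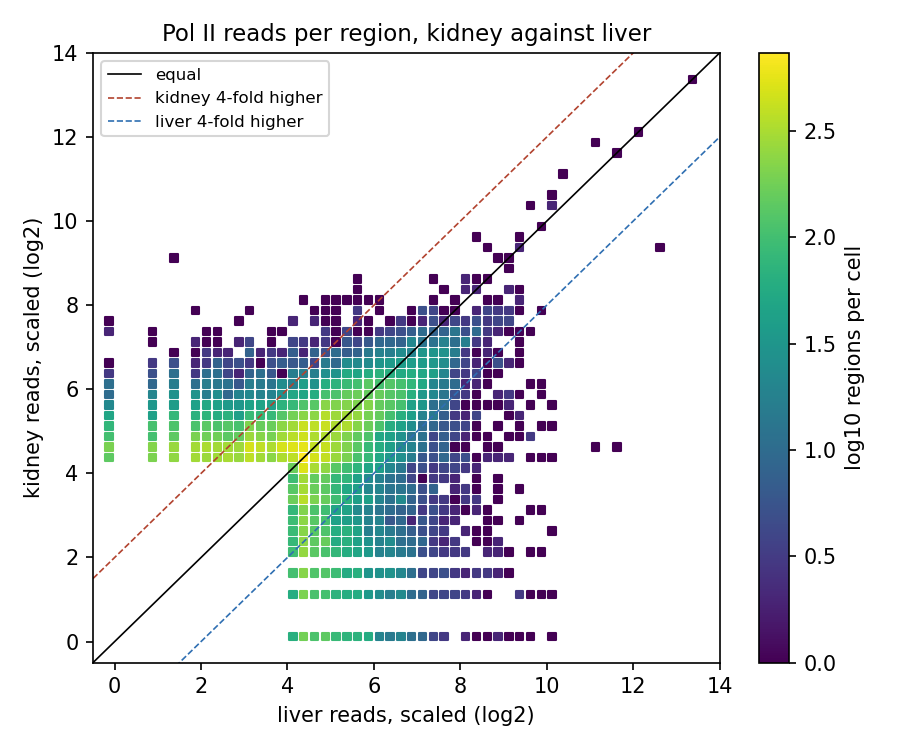
Scaled kidney reads (vertical, log2) against scaled liver reads (horizontal, log2) for the 43762 regions with at least 20 reads in either library, with counts of 0 drawn at 1 read. The colour gives the number of regions per cell on a log10 scale. Past the dashed 4-fold lines lie 6632 kidney-high and 5810 liver-high regions, and the cells of the liver-high ones extend to higher counts.

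A region was called kidney-high when it held at least 20 kidney reads and at least 4 times the scaled liver count, and liver-high by the same rule with the organs exchanged. Counts under 3 were raised to 3 in this fold, whereas ratios printed with an interval use the raw counts. By this rule 6632 regions were kidney-high, 6.26% of all regions, and 5810 were liver-high, 5.48% of all. Nearly all of them carried a peak of their own organ alone: 6487 kidney-high regions had only a kidney peak, and 5367 liver-high regions had only a liver peak. Both peaks were listed in 138 kidney-high and 409 liver-high regions. Among all regions, 24.3% held both peaks. A call requires a low count in the other organ, so a peak of that organ is made unlikely by the rule itself.

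The organs were close in the number of such regions but not in how far apart the counts lay. At 8-fold, 2764 regions were kidney-high and 2372 liver-high. At 16-fold the order turned, with 311 kidney-high and 751 liver-high regions. At 32-fold there were 23 kidney-high and 194 liver-high regions, and at 64-fold 2 and 61. The closeness of the first counts also rests on the read minimum, since a minimum of 50 reads gave 683 kidney-high and 1997 liver-high regions, and no minimum gave 16879 and 8538.

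**Figure D2:**
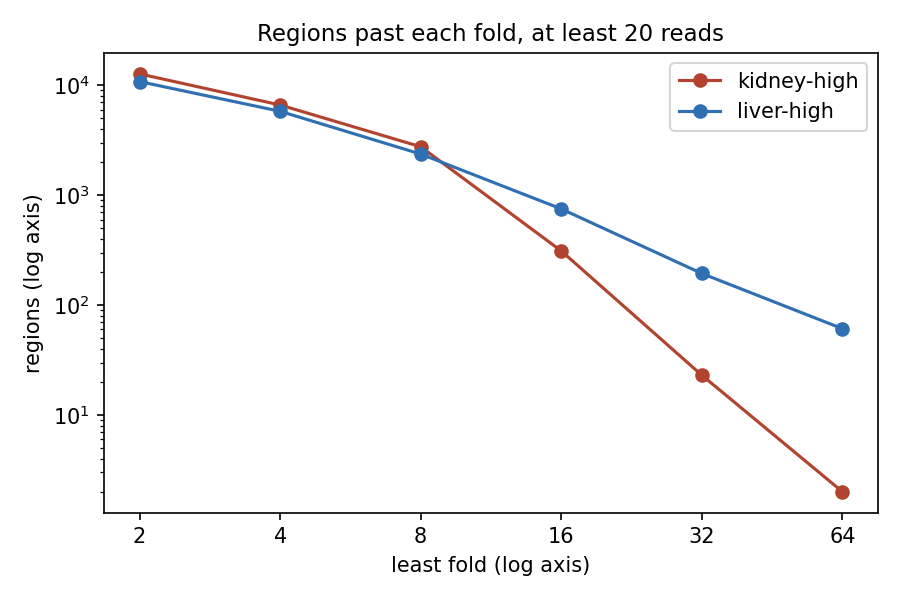
Number of kidney-high and liver-high regions (vertical, log axis) at each least fold (horizontal, log axis). Kidney-high regions are more numerous up to 8-fold, 2764 against 2372, and fewer from 16-fold on, 311 against 751.

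Read depth differed in the same direction, which is not a separate result. With counts under 3 raised to 3, the reads in the higher organ limit the fold that a region can reach. Kidney-high regions held a median of 27 kidney reads, with quartiles at 22 and 35 and a highest value of 561. Liver-high regions held a median of 36 liver reads, with quartiles at 25 and 62 and a highest value of 6351. In total the kidney-high regions took 1.59% of the kidney library against 0.220% of the liver library. The liver-high regions took 0.245% of the kidney library against 2.60% of the liver library.

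The call itself holds the other organ to a low count. In kidney-high regions the median liver count was 4, where the mean liver density of 5.66 reads per kb gives 2.84 for the median region, and 22.5% of the regions were at or under that mean. In liver-high regions the median kidney count was 4, where the mean kidney density of 5.22 reads per kb gives 2.61, and 30.9% were at or under it. Low counts of this kind limit how large a fold can be read from a single region.

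The region with the largest kidney excess lay on chromosome 13, from 55516086 to 55516586. It held 561 kidney reads against 3 liver reads, a ratio of 214 after scaling (interval 72.8 to 1039). Brain had 8 reads there, lung 77 and spleen 7. Lung was thus the next highest library at this position.

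On chromosome 15, from 89164696 to 89165196, kidney had 167 reads against 1 in liver, a ratio of 191 (33.8 to 7583) from the raw reads and 63.6 with the liver count raised to 3. On chromosome 9, from 45221171 to 45221671, kidney had 206 reads against 4 in liver, a ratio of 58.9 (22.6 to 218). On chromosome 13, from 73799501 to 73800001, kidney had 145 reads against 2 in liver, a ratio of 82.9 (22.5 to 691) from the raw reads and 55.2 with the liver count raised to 3. The intervals are wide because each rests on a handful of liver reads, so the order among these regions is not settled. The other leading kidney-high regions held 85 to 138 kidney reads and 1 to 4 liver reads.

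The leading liver-high regions were taller. On chromosome 5, from 90890691 to 90891191, kidney had 2 reads and liver 1288, which made liver 564 times as high (156 to 4658). On chromosome 8, from 112514356 to 112514856, kidney had 0 reads and liver 1143, so that liver was at least 333-fold higher against a floor of 3 kidney reads, while the counting interval alone reaches down to 271. On chromosome 7, from 31727456 to 31728356, kidney had 2 reads and liver 986, a ratio of 431 for liver over kidney (119 to 3567). Against the same floor of 3, the regions on chromosomes 5 and 7 had folds of 376 and 288. In all 3, brain, lung and spleen each had under 10 reads, so these positions were low in every library but that of liver. The other leading liver-high regions held 2 to 8 kidney reads and 342 to 993 liver reads.

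Joining called regions with gaps of up to 5 kb gave 3445 kidney-high places and 2422 liver-high places. Of these, 413 kidney-high and 457 liver-high places were runs of at least 3 regions. The runs contained 47.8% of the kidney-high regions and 60.4% of the liver-high regions. When all regions were joined in the same way, 73.8% of them lay in runs. That set is far denser, and a fixed gap joins more of a dense set. It therefore gives no base share for the called regions, and whether these cluster was not tested. Median run length was 8.50 kb in kidney-high and 8.70 kb in liver-high runs, and 61 kidney-high and 63 liver-high runs reached 20 kb.

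Reads were unevenly shared among places in both organs. The top 10 kidney-high places by reads held 14.2% of the 371952 kidney reads in kidney-high places, and the top 100 held 45.1%. The top 10 liver-high places held 17.6% of the 636324 liver reads in liver-high places, and the top 100 held 56.7%. A count of 1000 reads in the higher organ was reached by 55 kidney-high and 123 liver-high places.

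The longest kidney-high run lay on chromosome 2, from 69261121 to 69424271. It spanned 163 kb and contained 146 kidney-high regions out of 151. It held 10912 kidney reads against 861 liver reads, a ratio of 14.5 (13.5 to 15.5), with 465 brain, 1680 lung and 885 spleen reads. Kidney density was 66.9 reads per kb against 5.28 in liver, which is below the liver mean. The kidney reads numbered 4312, 3454 and 3146 over 3 equal parts of the run from low to high position, so reads lay along its full length.

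The second run, also on chromosome 2, from 124978186 to 125063086, had 71 kidney-high regions over 84.9 kb. It held 5261 kidney reads against 424 liver reads, a ratio of 14.2 (12.8 to 15.7). The next runs, on chromosomes 9, 16 and 3, had 59, 58 and 55 kidney-high regions and ratios of 7.60, 7.98 and 8.57. The run on chromosome 9 was also high in brain, with 3966 kidney, 596 liver and 2198 brain reads.

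A shorter kidney-high place had the largest ratio among the 217 places with at least 300 kidney reads. It lay on chromosome 13 from 55500836 to 55519046 and contains the leading region described above. Over 18.2 kb it held 4225 kidney reads against 111 liver reads, a ratio of 43.5 (36.03 to 53.0). The next, on chromosome 9 from 45207471 to 45225421, held 1979 kidney reads against 111 liver reads, a ratio of 20.4 (16.8 to 24.9). The interval of the chromosome 13 place does not reach that of the chromosome 9 place. Both were picked by ratio from these same counts, so their order was not tested.

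The longest liver-high run lay on chromosome 1, from 67162691 to 67280391, and all 94 of its regions were liver-high. Over 118 kb it held 487 kidney reads against 16541 liver reads, so that liver was 29.7 times as high (27.2 to 32.6). Kidney density there was 4.14 reads per kb, under the kidney mean, against 140.5 in liver. Brain had 299 reads, lung 356 and spleen 607. The next runs, on chromosomes 6, 2, 12 and 1, had 50, 39, 38 and 36 liver-high regions, with liver 18.1, 12.04, 18.1 and 12.4 times as high as kidney.

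The liver-high place with the most reads lay on chromosome 5, from 90889841 to 90906341. Over 16.5 kb it held 253 kidney reads against 28633 liver reads, a ratio of 99.0 for liver over kidney (87.5 to 113). The reads used 177 distinct positions and strands in kidney and 16230 in liver, so repeated reads were many in both. Kidney density was 15.3 reads per kb, above the kidney mean of 5.22. From low to high position 3 equal parts of the place held 13911, 9311 and 5411 liver reads.

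The place on chromosome 8, from 112503206 to 112524256, was lower in kidney. It held 68 kidney reads against 13313 liver reads, a ratio of 171 for liver over kidney (135 to 221), and its kidney density of 3.23 reads per kb was under the mean. The largest ratio among the 336 places with at least 300 liver reads was on chromosome 7, from 31725206 to 31729106. That place of 3.90 kb held 6 kidney reads against 2888 liver reads, a ratio of 421 (193 to 1149). Another place on the same chromosome, from 31705376 to 31709326, held 5 kidney reads against 449 liver reads, a ratio of 78.6 (33.4 to 243).

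**Figure D3:**
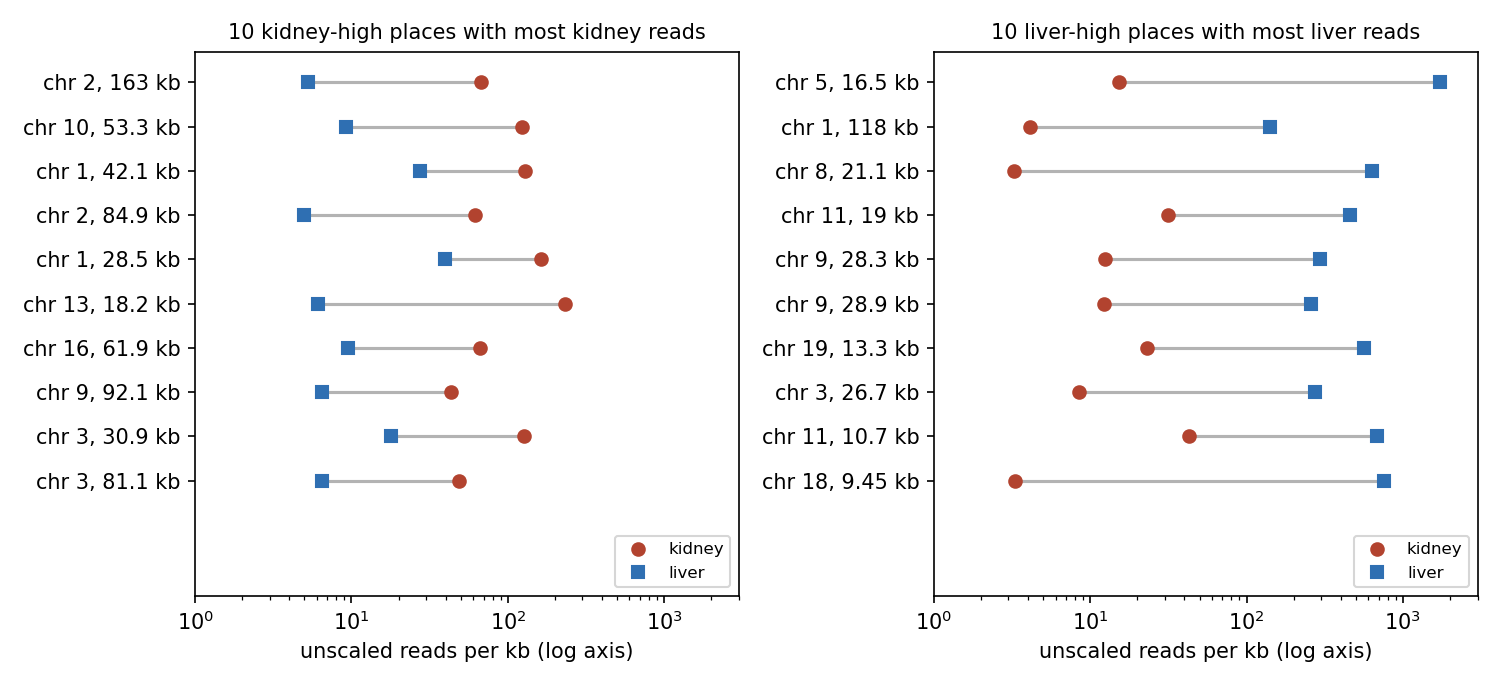
Unscaled reads per kb (horizontal, log axis) in kidney (circles) and liver (squares) for the 10 kidney-high places with most kidney reads, left, and the 10 liver-high places with most liver reads, right, each row giving chromosome and length. Kidney lies right of liver in every row on the left and left of it in every row on the right. The liver-high rows reach 1735 liver reads per kb, while the kidney-high rows reach 232 kidney reads per kb.

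**Figure D4:**
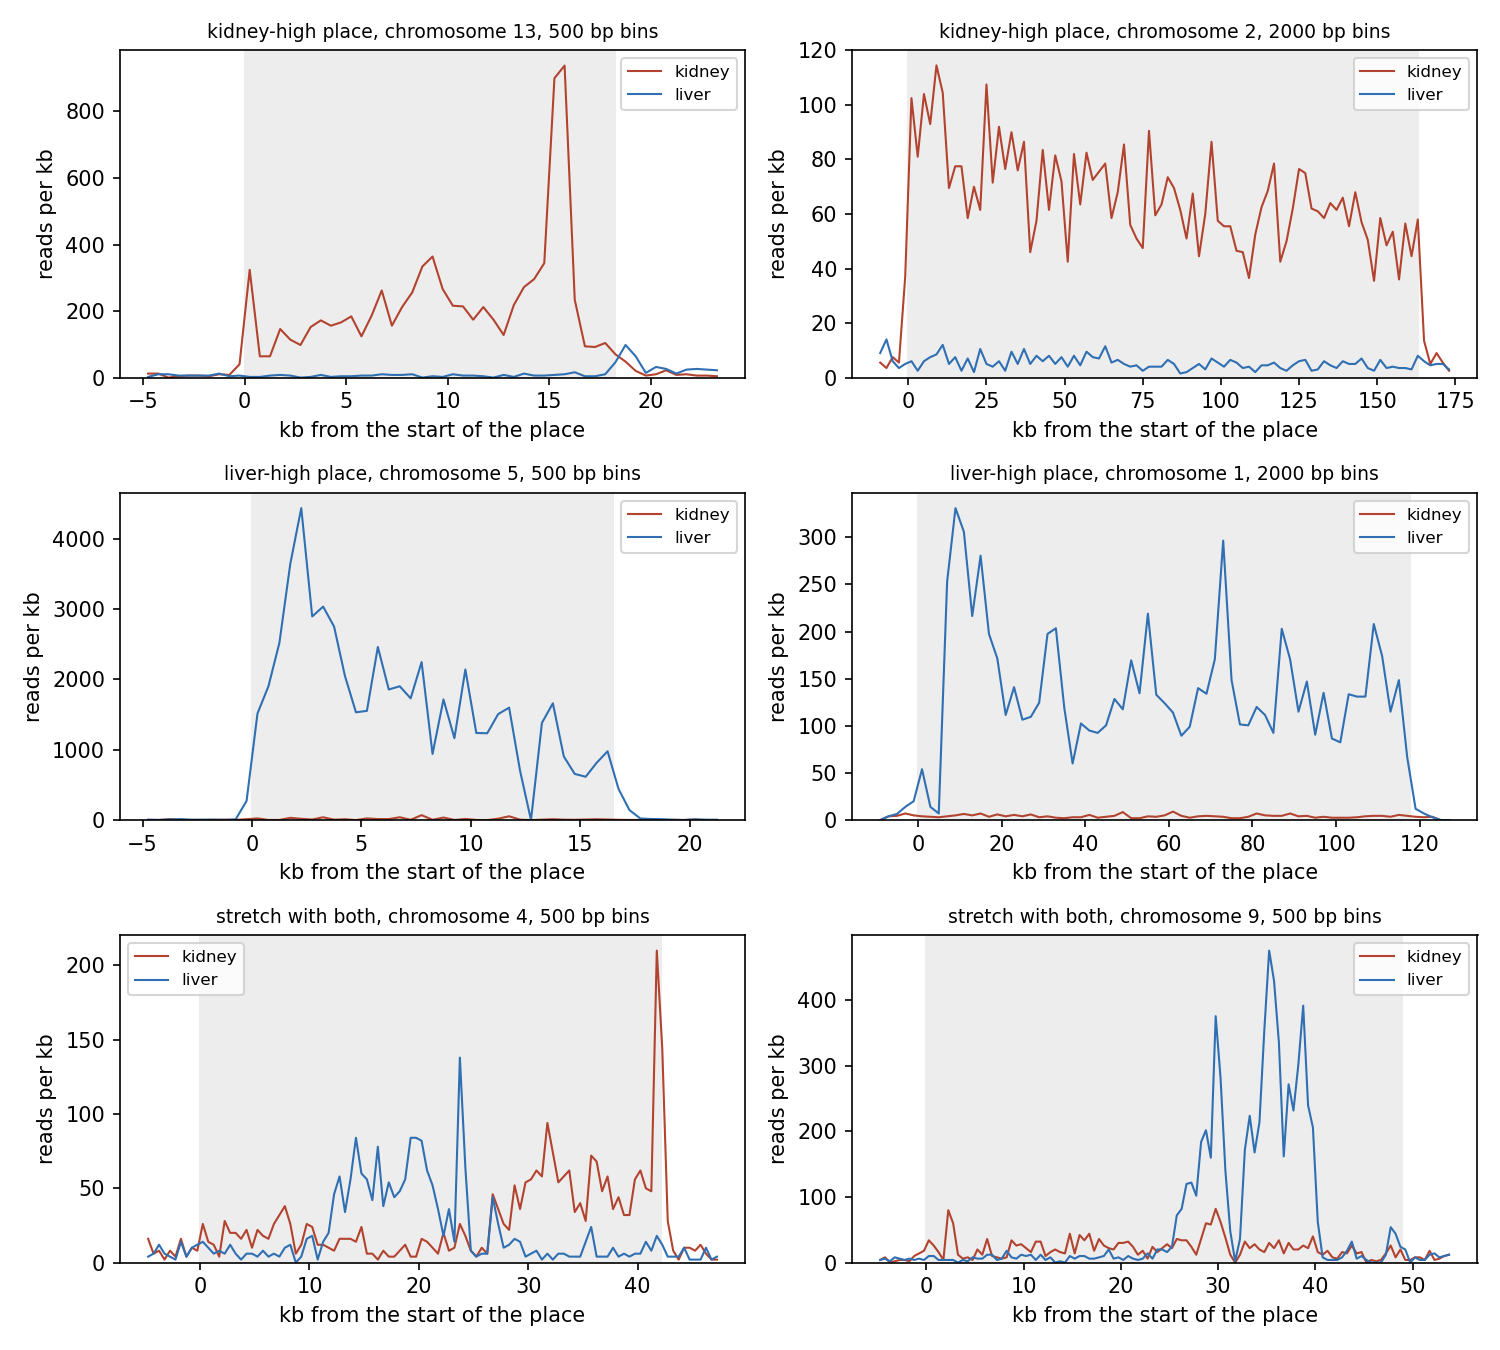
Unscaled reads per kb (vertical) along 4 leading places and along the stretches on chromosomes 4 and 9 that hold regions of both kinds, by distance in kb from the start of the place. The shaded span is the place itself. Kidney reads run along the chromosome 2 place and liver reads along the chromosome 1 place, where liver dips to 7 reads per kb before its level reaches 253 at 7 kb, whereas the lowest panels change from one organ to the other within a stretch.

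When all regions were joined with gaps of up to 5 kb into 31156 stretches, 2670 held kidney-high regions without liver-high ones and 1941 held liver-high regions without kidney-high ones. Both kinds were held by 57 stretches and neither by 26488. The 57 were 3.61% of the 1577 stretches with at least 2 called regions, and contained 195 kidney-high and 119 liver-high regions.

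The mixed stretch with the most regions of its rarer kind spanned 42.1 kb on chromosome 4, from 62791256 to 62833391. Its 11 kidney-high regions held 435 kidney reads against 52 liver reads, and its 6 liver-high regions held 33 kidney reads against 294 liver reads. The liver-high regions lay between 62805311 and 62815411, inside the span of the kidney-high ones. On chromosome 9, from 119026276 to 119075216, the kinds were apart. There 5 kidney-high regions ended at 119043076, with 140 kidney reads against 16 liver reads, and 9 liver-high regions began at 119054056, with 194 kidney reads against 1651 liver reads.

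The series concerns promoter use, so shifts between neighbouring regions were also counted. Adjacent regions with midpoints 1 to 10 kb apart and at least 50 reads of the pair in each organ made 6971 pairs. In 177 of them, 2.54%, the region with the larger share of the pair differed between kidney and liver and the intervals of the share did not overlap. Windows of 500 bp to both sides gave 607 such pairs. The rule did not require either interval to exclude an even share. Whether a region is a start site was not assessed.

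In the pair with the largest difference, on chromosome 17, the region from 32045681 to 32046256 had 19 kidney and 86 liver reads, and its neighbour from 32049256 to 32050206 had 31 kidney and 8 liver reads. The first region thus took 38% of the kidney pair (24.65 to 52.8) and 91.5% of the liver pair (83.9 to 96.3). The kidney interval includes an even share, so which region is the larger in kidney is not settled. On chromosome 13, the region from 31649851 to 31650501 took 28.2% of the kidney reads (20.02 to 37.6) and 77.2% of the liver reads (70.4 to 83.0) of its pair. On chromosome 1, the region from 173150821 to 173151321 took 19.6% of the kidney reads (10.2 to 32.4) and 68.4% of the liver reads (62.2 to 74.2). In the pair on chromosome 5, the region from 114622701 to 114623241 had 116 liver reads at 27 distinct positions and strands, so its share rests on repeated reads.

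Kidney-high regions were more often occupied in a further tissue than liver-high ones. Libraries were scaled here over the 4903 regions that held at least 20 reads in all 5, which is not the scale of the calls. Under it, liver stayed at least 4-fold over kidney in 90.2% of liver-high regions, and kidney over liver in 100% of kidney-high ones. Lung stood at 50% or more of the kidney level in 18.2% of kidney-high regions. It stood at 50% or more of the liver level in 2.63% of liver-high regions. The figures for brain were 14.7% of kidney-high and 2.94% of liver-high regions, and for spleen 16.2% and 8.88%. At least one of these tissues reached 50% in 33.5% of kidney-high and 12.1% of liver-high regions. Total-read scaling moved the lung and spleen shares, and the brain share of kidney-high regions, by over 1.5 times. Lung went to 31.8% of kidney-high and 4.72% of liver-high regions, and spleen to 4.92% and 1.58%. Under that scaling brain gave 22.4% and 4.25%, and any of these tissues 41.0% and 8.55%. Liver-high regions also held more reads, and the part of that in these shares was not tested.

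**Figure D5:**
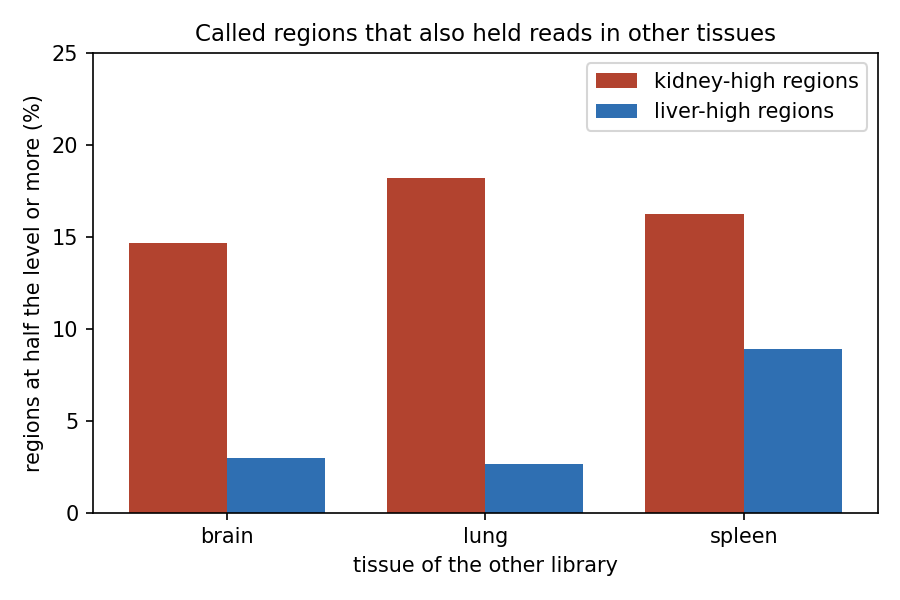
Share of kidney-high and of liver-high regions (vertical, percent) in which the brain, lung or spleen library stood at 50% or more of the level in the higher organ. Bars for kidney-high regions are the taller in each tissue, 18.2% against 2.63% for lung, under scaling by the median ratio.

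Across chromosomes, kidney-high regions ranged from 0.956% of the regions on the X chromosome to 10.2% on chromosome 11. Liver-high regions ranged from 1.41% on X to 10.2% on chromosome 19. The Y chromosome had 43 regions, of which 0 were called. All of Y held only 169 kidney and 245 liver reads, so few of its regions could reach the minimum of 20. The X chromosome held 3.47% of the kidney and 3.80% of the liver reads, and the part of read depth in its low shares was not tested. Chromosome 2 carried 744 kidney-high and 323 liver-high regions, 9.88% and 4.29% of its regions. Chromosome 16 carried 390 and 145, 9.83% and 3.66% of its regions. Chromosome 5 carried 398 of each, 6.08% of its regions. Yet it held 5.38% of the kidney reads in kidney-high regions and 10.6% of the liver reads in liver-high regions. Neighbouring regions of one run are not independent. Kidney-high runs of 146 and 71 regions lay on chromosome 2, beside a liver-high run of 39. A kidney-high run of 58 regions lay on chromosome 16. The part of all runs in these counts was not tested.

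The single tallest liver-high region lay on chromosome 7, from 38979986 to 38980606. It held 600 kidney reads against 6351 liver reads, a ratio of 9.26 for liver over kidney (8.52 to 10.1). The liver reads fell on 948 distinct positions and strands in 621 bp, and the kidney reads on 415. Each strand offers only as many positions as the region has bases, so reads this many must repeat positions. A low share of distinct reads in the tallest regions therefore partly follows from their height. Among regions with at least 50 reads in the higher organ, 0 of 683 kidney-high and 21 of 1997 liver-high regions had under 40% distinct reads.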

How the data were processed

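Pol II ChIP-seq was measured in 1 library per tissue. Per the labels' processing notes the authors used Bowtie, with no version, settings, genome build or peak caller named. The deposited files list aligned reads of 34 to 36 bases and, per library, peak positions on a 5 bp grid with no score or width. Other numbers were computed from these. The 5′ ends of all reads were counted per region with Python 3.11.15, NumPy 2.4.6, pandas 2.3.3 and SciPy 1.17.1. Scaling, calls and fold intervals were tested on simulated region counts, with changes placed only in regions of high count. The counting of reads was not part of that test. With 1 library per tissue, intervals cover counting error only. Named regions are the 10 per organ with the largest fold among those with at least 50 reads, at most 1 per 100 kb, with the 5 runs per organ with most regions, the 5 equal regions and the 5 pairs with the largest difference, of which some are given. Places ranked by reads or fold, mixed stretches, chromosome counts and the tallest region were added after their values were seen. Comparison and rules were chosen with earlier results of these data known. Gene-level results and gene lists, planned only with an annotation of the files' build, and promoter sequences were not analysed here. The alternatives changed scaling, read counting, window, background, depth, peak list, minimum, fold and gap.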

Additional observations from a re-analysis of the deposited data

How the results depend on the processing

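No paired analysis was possible because each tissue had 1 library. The counts of kidney-high and liver-high regions and runs stayed within 1.5 times under total-read scaling, scaling over regions with both peaks, 1 read per position and strand, reads moved 100 bp, windows of 500 bp, thinning, and peaks with at least 20 own reads, and with the genome mean taken off or repeat-rich regions left out. The thresholds moved them further, except that liver-high regions and runs stayed within 1.5 times with no read minimum. A minimum of 50 reads gave 683 kidney-high and 1997 liver-high regions and 46 and 158 runs, and no minimum gave 16879 kidney-high and 8538 liver-high regions and 1078 and 631 runs. A fold of 2 gave 12733 and 10834 regions and 912 and 793 runs, and a fold of 8 gave 2764 and 2372 regions and 162 and 196 runs. Exchanged pairs numbered 607 with windows of 500 bp and 1031 with a minimum of 20 pair reads. Regions with both peaks numbered 10721 with peaks of at least 20 own reads and 13226 with positions within 100 bp. Where thresholds did not set the change, the cause was not tested. Total-read scaling gave spleen at 50% or more in 4.92% of kidney-high and 1.58% of liver-high regions, lung in 31.8% and 4.72%, and brain in 22.4% and 4.25%. The 20 named kidney-high and liver-high regions kept their direction and stayed past 4-fold in the 3 alternatives run on them. Of 15 such values for the near-equal regions, 6 left the counting interval of the main value. For the region on chromosome 17 from 39984736, the log2 ratio of kidney to liver went from 0.237 to 0.418 with 1 read per position and strand. Low counts limit folds: 1350 kidney-high regions had under 3 liver reads, and 1682 liver-high regions under 3 kidney reads. The gene-level alternatives were not run.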
